A study of Rattus norvegicus with 24 samples.

Results

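The 10 genes described here mark macrophages, the resident immune cells of the testis interstitium: Csf1r, Lyz2, Tyrobp, Adgre1, Cd68, Cd163, Mrc1, C1qa, C1qb and C1qc. They were taken by name as textbook markers, not by their values, and all 10 were found among the 21425 genes of the expression table. The libraries came from cultures of neonatal rat testis: the whole cell mixture of wild-type Sprague Dawley testes, taken on postnatal day 5, was grown in Matrigel, a basement membrane gel, in serum-free medium. There were 2 experiments, with 24 libraries in 8 groups of 3. The baseline experiment profiled the cells of 1 litter after 3, 5 and 7 days of culture and as the fresh tissue isolate, without hormone, as 3 technical replicates each. In the induction experiment, day 10 cultures of 3 litters received luteinizing hormone (LH, 50 mIU/mL) and follicle-stimulating hormone (FSH, 20 mIU/mL) with fresh medium and were profiled after 2, 12 and 48 h and at 0 h. Each induction library held the pooled cultures of 1 litter at 1 time. No library without hormone at 2, 12 or 48 h was analysed here, so hormone, fresh medium and further time in culture cannot be told apart.

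Macrophages of the neonatal testis descend from fetal progenitors and lie in the interstitium beside the Leydig cells, where they clear debris and exchange signals with steroid-producing cells. Their survival depends on the receptor tyrosine kinase encoded by Csf1r, whose ligands are CSF1 and IL-34. Much of the macrophage programme is driven by the transcription factor PU.1, encoded by Spi1, which binds sites built around a purine-rich core. In rats the antibody ED2, which recognises CD163, is the classical stain for resident testicular macrophages.

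Promoter sequences of 4 of the genes are given because these genes behaved differently in the libraries. Csf1r and Lyz2 ran alike in 2 of the 3 litters of the induction experiment, and Adgre1 rose in culture while others fell. C1qa had the largest log2 difference from 0 h to 48 h of the 9 tested genes in litters 1 and 3. All 9 were higher at 48 h in those litters. Each window runs from 250 bases before to 50 bases after the RefSeq start site in the rat assembly GRCr8, on the gene's own strand. Capitals mark the PU.1-type core GAGGAA or its reverse complement TTCCTC.
Csf1r, chr18:56834129-56834428, plus strand: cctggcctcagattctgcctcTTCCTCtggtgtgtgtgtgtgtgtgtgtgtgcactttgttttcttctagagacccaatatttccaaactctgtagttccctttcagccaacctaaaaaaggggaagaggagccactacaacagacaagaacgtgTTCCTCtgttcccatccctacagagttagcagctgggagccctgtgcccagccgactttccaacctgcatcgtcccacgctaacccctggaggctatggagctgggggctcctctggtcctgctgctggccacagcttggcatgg
Lyz2, chr7:54797962-54798261, minus strand: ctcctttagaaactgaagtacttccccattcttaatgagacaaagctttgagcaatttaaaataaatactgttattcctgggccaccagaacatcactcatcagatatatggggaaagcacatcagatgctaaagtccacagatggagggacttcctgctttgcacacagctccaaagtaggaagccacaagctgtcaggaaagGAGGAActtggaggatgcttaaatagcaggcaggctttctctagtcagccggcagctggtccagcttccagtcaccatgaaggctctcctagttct
Adgre1, chr9:2329190-2329489, plus strand: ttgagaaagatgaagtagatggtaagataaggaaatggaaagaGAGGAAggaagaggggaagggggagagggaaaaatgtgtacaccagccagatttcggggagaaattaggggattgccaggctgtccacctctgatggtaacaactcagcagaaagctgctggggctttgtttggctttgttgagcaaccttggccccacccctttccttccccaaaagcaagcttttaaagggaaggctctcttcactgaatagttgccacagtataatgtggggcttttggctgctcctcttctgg
C1qa, chr5:154419884-154420183, minus strand: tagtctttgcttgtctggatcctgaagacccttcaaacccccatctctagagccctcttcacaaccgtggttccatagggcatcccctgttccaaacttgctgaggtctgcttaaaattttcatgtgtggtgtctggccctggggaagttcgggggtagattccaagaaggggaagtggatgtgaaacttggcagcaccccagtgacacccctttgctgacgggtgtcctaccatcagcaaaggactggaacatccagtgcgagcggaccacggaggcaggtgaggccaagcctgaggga
The core was searched on both strands, with no other motif. Of the 8 genes whose promoters the table holds, 6 had at least 1 copy, while 27.6% of all 33469 promoter windows of the same length had one. Csf1r, Cd68, Mrc1 and C1qb had 2 copies each, Lyz2 and Adgre1 had 1, and C1qa and Cd163 had none. A match describes the letters in this window and says nothing of binding.

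Expression is given in CPM, the read count of a gene after every library is scaled to one common total, and differences are on the log2(CPM + 1) scale with their standard errors, which understates changes of low genes. Libraries held 17.3 to 30.4 M reads in the baseline and 15.8 to 28.3 M reads in the induction experiment, so that 1 read was worth 0.0329 to 0.0579 and 0.0353 to 0.0633 CPM. CPM is not scaled by transcript length, so levels are not set against each other between genes, nor between the experiments. The label macrophage was backed by some defining genes and not by others. Cd163, the scavenger receptor for haemoglobin, had 5 reads in the 12 baseline libraries, all in tissue replicate 1, and 1 read in the 12 induction libraries; a count of 0 allows up to 0.174 CPM and 0.19 CPM, for counting error only. The transcription factor gene Spi1 stood at 0.60 to 0.72 CPM in tissue, and the pan-leukocyte gene Ptprc (CD45) at 0.72 to 0.83 CPM. Other leukocyte markers were low: the 10 T and NK cell genes summed to at most 4.57 CPM, the 7 neutrophil genes to at most 0.964 CPM and the 8 mast cell genes to at most 1.61 CPM in any library, with the mast cell gene Cpa3 at 0 in all 24. The dendritic cell, endothelial and erythroid lists each had genes above 5 CPM and gave mixed results at day 3 against tissue: of the tested genes, 2 rose and 2 fell of 5 dendritic cell genes, 1 rose and 5 fell of 8 endothelial genes, and 1 rose and 1 fell of 3 erythroid genes. Over all genes, 29.1% rose and 26.8% fell in this comparison. In bulk RNA, fewer cells of a type and less RNA per cell cannot be told apart.

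In the baseline experiment the 10 genes did not move together. Relative to tissue, the adaptor gene Tyrobp fell at every culture time and Adgre1 rose at every culture time, whereas Csf1r, Lyz2 and Mrc1 were lower by day 7 and Cd68 and C1qa did not pass the test. At day 3, 3 of the 7 tested genes were called (limma, Benjamini-Hochberg adjusted p under 0.05), where 55.9% of all 13055 genes were; 1 rose, as 29.1% of all genes did, and 2 fell, as 26.8% did. At day 5, 3 of 7 were called, where 59.9% of all genes were; 1 rose (29.6% of all genes) and 2 fell (30.3%). At day 7, 5 of 7 were called, where 60.0% of all genes were; 1 rose (28.5% of all genes) and 4 fell (31.4%). These shares are not far from the background of comparisons in which most genes were called. The 3 libraries of a group were technical replicates of 1 litter, so p-values here measure technical spread only.

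Csf1r, the receptor on which macrophage survival depends, gave 5.88, 4.27 and 6.61 CPM in the 3 tissue libraries. It gave 3.21, 5.23 and 6.08 CPM at day 3, 2.32, 2.94 and 5.50 CPM at day 5, and 2.98, 2.17 and 1.88 CPM at day 7. The day 3 and day 5 libraries overlapped with tissue and the day 7 libraries lay below all 3 of them. The log2 difference from tissue was -0.19 ± 0.27 at day 3 (adjusted p = 0.565), -0.57 ± 0.27 at day 5 (adjusted p = 0.0837) and -0.97 ± 0.27 at day 7 (adjusted p = 0.00649), so only the day 7 value passed. Without day 5 replicate 3, the highest of its group, the day 5 value also passed (-0.85, adjusted p = 0.0103).

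Lyz2 encodes lysozyme M, a bacteriolytic enzyme of myeloid cells. Its tissue libraries lay close together at 24.3, 23.5 and 25.0 CPM, and its culture libraries were spread widely: 12.1, 15.1 and 30.2 CPM at day 3, 3.07, 6.98 and 16.8 CPM at day 5, and 5.05, 10.7 and 9.84 CPM at day 7. Day 3 replicate 3 was above every tissue library, while all day 5 and day 7 libraries were below them. Lyz2 fell by 1.60 ± 0.44 at day 5 (adjusted p = 0.00692) and by 1.47 ± 0.44 at day 7 (adjusted p = 0.0114), and its day 3 difference of -0.43 ± 0.44 did not pass (adjusted p = 0.428). Without day 7 replicate 1 the day 7 value was -1.17 and no longer passed (adjusted p = 0.0550).

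Tyrobp encodes DAP12, the adaptor through which TREM2 and other activating receptors signal in myeloid and NK cells. It gave 24.6, 19.7 and 27.2 CPM in tissue, against which all 9 culture libraries were low: 1.06, 1.73 and 2.86 CPM at day 3, 0.985, 1.09 and 0.847 CPM at day 5, and 0.287, 0.347 and 1.12 CPM at day 7. No culture library came near the tissue range. Tyrobp fell by 3.14 ± 0.25 at day 3 (adjusted p = 2.53e-07), by 3.64 ± 0.25 at day 5 (adjusted p = 5.92e-08) and by 4.0 ± 0.25 at day 7 (adjusted p = 2.25e-08). Markers of other blood cells did not all go one way. Hba-a1, an alpha globin, had at most 0.258 CPM in any culture library, against 22.9, 15.4 and 27.1 CPM in tissue. Csf3r, the receptor for granulocyte colony-stimulating factor, had at most 2.17 CPM in culture, against 14.3, 14.3 and 15.3 CPM in tissue. Alas2, the erythroid enzyme of haem synthesis, was higher in culture instead, with 45.5 ± 6.29 CPM at day 3, against 5.97 ± 1.96 CPM in tissue (2.77 ± 0.37, adjusted p = 3.17e-05). Alas2 averaged 20.0 ± 9.39 CPM at day 5 and 15.8 ± 9.54 CPM at day 7. The erythroid list, made up mostly of Alas2 at day 3, summed to 42.0 to 54.7 CPM then, against 20.5 to 36.2 CPM in tissue. Its sum was 12.0 to 29.5 CPM at day 5 and 11.4 to 28.1 CPM at day 7. The part of other blood cells in the Tyrobp difference was not tested.

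Adgre1 encodes F4/80, an adhesion-type receptor used as the classical macrophage marker in mice. In tissue it was close to the detection limit, with 0.263, 0.183 and 0.493 CPM, or 6, 4 and 15 reads. It reached 3.17, 3.98 and 5.55 CPM at day 3, 2.55, 2.42 and 1.27 CPM at day 5, and 1.20, 2.99 and 1.57 CPM at day 7. Every culture library was above every tissue library. Adgre1 rose by 1.98 ± 0.26 at day 3 (adjusted p = 2.37e-05), 1.21 ± 0.26 at day 5 (adjusted p = 0.00116) and 1.11 ± 0.26 at day 7 (adjusted p = 0.00203).

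Mrc1 encodes the mannose receptor CD206, an endocytic receptor of tissue macrophages that is also made by some endothelial cells. It gave 23.8, 21.7 and 22.9 CPM in tissue, 14.9, 20.9 and 16.2 CPM at day 3, 20.4, 16.6 and 21.2 CPM at day 5, and 13.9, 13.3 and 13.4 CPM at day 7. All culture libraries lay below all tissue libraries, most tightly at day 7. Mrc1 fell by 0.71 ± 0.14 at day 7 (adjusted p = 0.000714) and by 0.39 ± 0.14 at day 3 (adjusted p = 0.0315), while its day 5 difference of -0.23 ± 0.14 did not pass (adjusted p = 0.182). The day 3 value did not pass when any 1 tissue library was left out, nor without day 3 replicate 1 or 3 (-0.30 to -0.42, adjusted p = 0.0517 to 0.138). Cdh5, which encodes the endothelial cadherin, gave 92.5, 73.6 and 76.6 CPM in tissue, 110.1, 107.7 and 92.8 CPM at day 3, and 59.7, 69.3 and 43.4 CPM at day 7. Kdr, which encodes an endothelial receptor for vascular endothelial growth factor, averaged 50.7 ± 8.23 CPM at day 7, against 8.95 ± 1.31 CPM in tissue (2.37 ± 0.18, adjusted p = 1.60e-07). Of the 8 tested endothelial genes 1 rose and 5 fell at day 7, where 28.5% of all genes rose and 31.4% fell. The endothelial list summed to 110.9 to 119.1 CPM at day 7, against 108.1 to 124.5 CPM in tissue. The part of endothelial cells in the Mrc1 difference was not tested.

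Cd68, a lysosomal membrane protein of phagocytes, gave 1.21, 1.62 and 2.27 CPM at day 3, against 1.18, 0.780 and 0.362 CPM in tissue. These groups did not overlap, yet the day 3 difference of 0.61 ± 0.30 did not pass (adjusted p = 0.0997), nor did those at day 5 (0.45 ± 0.30, adjusted p = 0.211) and day 7 (0.47 ± 0.30, adjusted p = 0.195). The day 3 difference passed when only the day 3 and tissue libraries entered the fit (adjusted p = 0.0398), and the day 5 difference passed without day 5 replicate 1 (0.75, adjusted p = 0.0482).

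C1qa, C1qb and C1qc encode the 3 chains of C1q, the recognition unit of the classical complement pathway, which macrophages make locally. C1qa gave 0.189, 0.332 and 1.16 CPM at day 3, against 1.49, 0.780 and 1.18 CPM in tissue. It passed the low-value filter with 5 libraries at 1 CPM or more, and its differences of -0.50 ± 0.27, -0.17 ± 0.27 and -0.36 ± 0.27 at days 3, 5 and 7 did not pass (adjusted p = 0.138, 0.624 and 0.276). C1qa passed at day 3 only without day 3 replicate 3 (-0.76, adjusted p = 0.0326), the highest day 3 library. C1qb and C1qc reached 1 CPM in 2 libraries each and were not tested: C1qb lay between 0.101 and 0.793 CPM in culture and between 0.789 and 1.49 CPM in tissue, and C1qc between 0 and 1.27 CPM in culture and between 0.688 and 0.954 CPM in tissue.

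**Figure D1:**
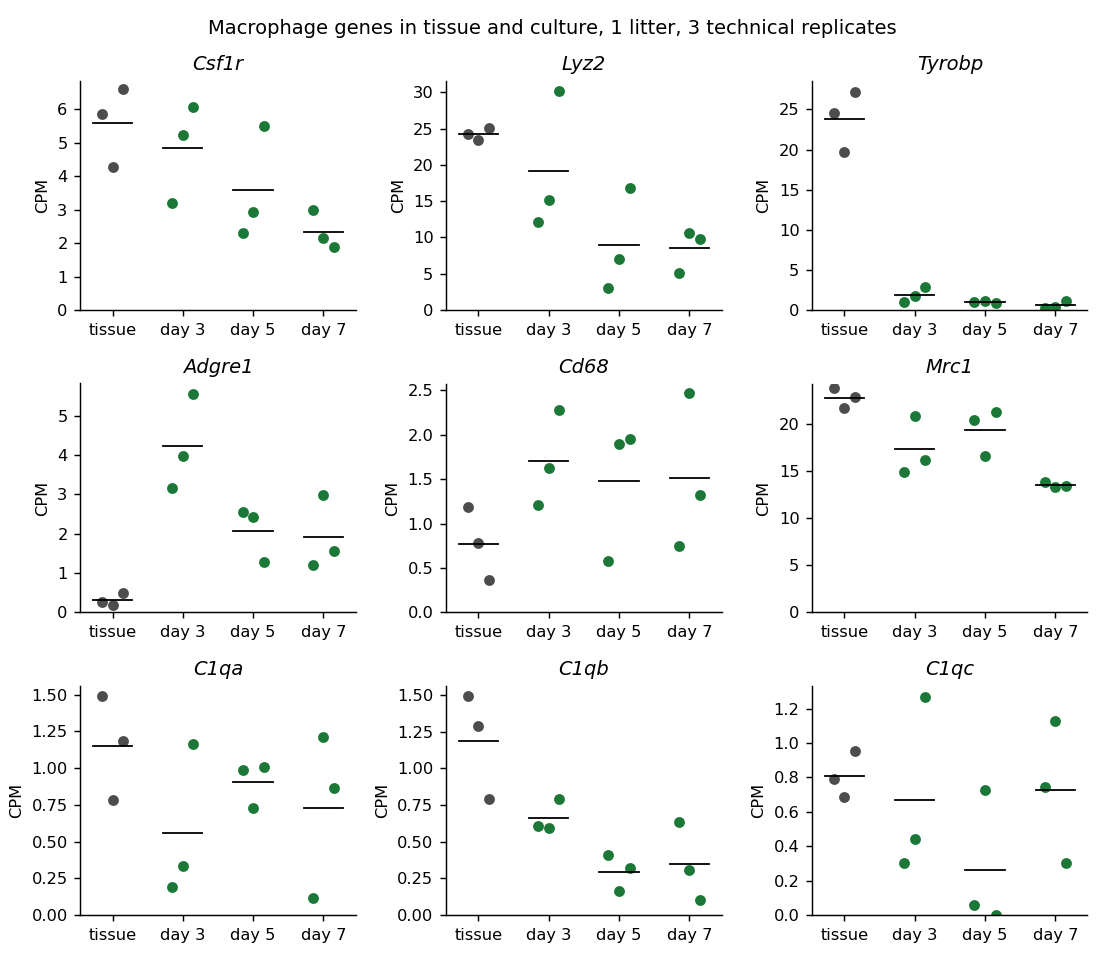
Each panel plots 1 gene in CPM (vertical axis, from 0) in tissue and at days 3, 5 and 7 of culture; points are the 3 technical replicates of a group and bars their mean. Tyrobp is at most 2.86 CPM in culture and 19.7 to 27.2 CPM in the 3 tissue libraries, and Adgre1 has the opposite order.

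**Figure D2:**
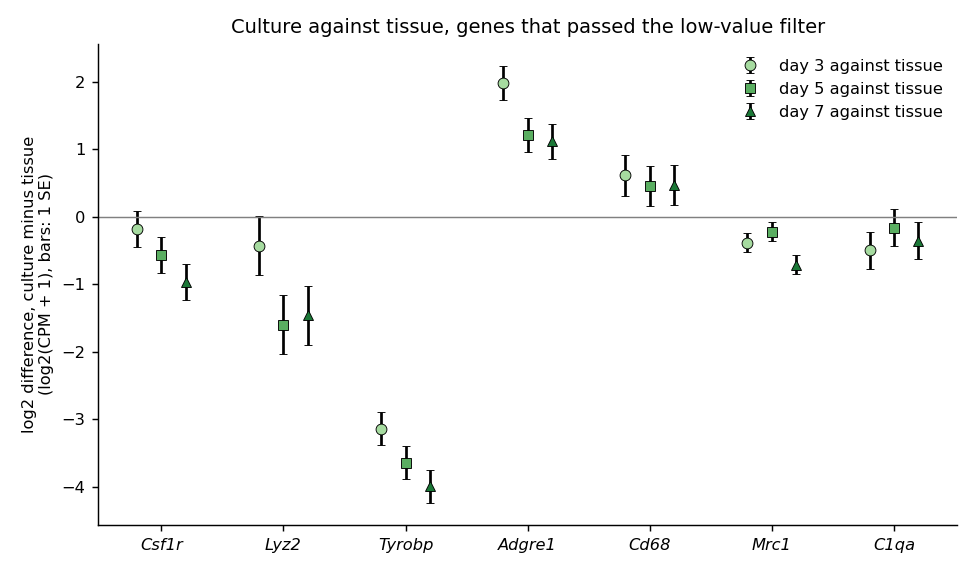
Log2 differences from tissue on log2(CPM + 1) at days 3, 5 and 7 for the 7 genes that passed the low-value filter, with bars of 1 standard error. Tyrobp lies at -3.14 to -4.0, Adgre1 at 1.11 to 1.98, and Csf1r at -0.19, -0.57 and -0.97.

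Between day 7 and day 3 none of the 7 tested genes was called by limma, where 3.79% of all genes were called. An unadjusted p under 0.05 was found in 1936 of all 13055 genes and in 5 of the 7. Those 5 were Csf1r (-0.78 ± 0.27, adjusted p = 0.147), Lyz2 (-1.04 ± 0.44, 0.283), Tyrobp (-0.85 ± 0.25, 0.0757), Adgre1 (-0.86 ± 0.26, 0.0852) and Mrc1 (-0.32 ± 0.14, 0.305), each with a lower mean at day 7. Tyrobp passed with DESeq2 on the recovered reads (-1.59, adjusted p = 0.00750), and Adgre1 passed without day 5 replicate 3 (-0.86, 0.0468) or without day 7 replicate 2 (-1.11, 0.0329). Of the 3 day 3 libraries, replicate 3 was the highest for all of these genes but Mrc1.

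Other genes of the same pathways were divided in culture. Beside the list counts that follow, 29.1% of all genes rose and 26.8% fell at day 3, and 28.5% rose and 31.4% fell at day 7. Among 12 myeloid regulators and genes of the CSF1 axis, 7 rose and 5 fell at day 3 (median log2 difference 0.54, beside 0.02 over all genes). The ligand gene Csf1 gave 42.9, 41.3 and 49.8 CPM at day 3, against 12.2, 12.4 and 11.2 CPM in tissue, and rose by 1.81 ± 0.13 (adjusted p = 1.32e-07). Runx1, a haematopoietic transcription factor that other cell types also use, rose by 3.02 ± 0.19. Cebpb, a factor of inflammatory gene expression, fell by 1.84 ± 0.27. Spi1 rose by 0.51 ± 0.19 at day 3 (adjusted p = 0.0329), and its day 7 difference of 0.10 ± 0.19 did not pass (adjusted p = 0.675).

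Among myeloid surface and signalling genes, 14 of 26 were tested; 1 rose and 4 fell at day 3, and 2 rose and 5 fell at day 7 (medians -0.02 and -0.42, beside 0.02 and -0.05 over all genes). Itgb2, the shared beta chain of leukocyte integrins, fell by 0.76 ± 0.21 at day 3 (adjusted p = 0.00736) and by 1.31 ± 0.21 at day 7 (adjusted p = 0.000112). Coro1a, which encodes a leukocyte actin regulator, fell by 1.15 ± 0.30 and 1.82 ± 0.30 at these times (adjusted p = 0.00505 and 0.000148). C3ar1 of the same list was higher in culture instead, with 0.307, 0.275 and 0.362 CPM in tissue. It gave 4.57, 4.79 and 4.49 CPM at day 3 and 3.10, 2.69 and 3.91 CPM at day 7. Of the antigen presentation genes, 4 of 5 tested fell at day 3 and none rose: Cd74, the invariant chain of MHC class II, fell to 0.906 ± 0.559 CPM at day 3, against 10.9 ± 0.946 CPM in tissue (-2.69 ± 0.35), and the class II beta chain gene RT1-Bb fell by 1.06 ± 0.19.

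Genes that macrophages share with other cells of the testis differed by list. Over all genes, 29.1% rose and 26.8% fell at day 3. Of 18 lysosomal genes 15 rose and 1 fell at day 3 (median 0.68), among them the protease gene Ctsl (1.21 ± 0.12), the acid lipase gene Lipa (1.18 ± 0.09) and Gpnmb (1.73 ± 0.21), which encodes a glycoprotein of lysosome-rich phagocytes and pigment cells. Of 10 tested complement partners 5 rose and none fell at day 3 (median 0.44), with C1s at 183 ± 27.4 CPM at day 3, against 44.4 ± 5.04 CPM in tissue (2.01 ± 0.22), and C1r at 388 ± 30.0 CPM, against 133 ± 9.85 CPM (1.53 ± 0.15); these encode the proteases that join C1q. Of the same 10 complement partners, 5 rose and 3 fell at day 5. At day 7, 4 rose and 2 fell, with Serping1 at -1.09 ± 0.15. Of 6 tested scavenging genes 2 rose at day 3, Gas6 (1.69 ± 0.14) and its receptor gene Mertk (1.07 ± 0.17), the pair by which phagocytes recognise dying cells. Of 11 tested inflammatory mediators 2 rose and 7 fell (median -0.65), with Cxcl1 at -3.18 ± 0.21, Cxcl10 at -1.54 ± 0.34 and Tgfb1 at 1.20 ± 0.18.

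In the induction experiment the cultures of the 3 litters held these genes at different levels throughout. Litter 2 had the lowest level of the 3 litters in 7 of the 9 tested genes at 0 h and in 9 of 9 at 2, 12 and 48 h. Litter 1 was the highest for 9 of 9 genes at 0 h and 2 h, and litter 3 for 9 of 9 at 12 h and 8 of 9 at 48 h. In litters 1 and 3 all 9 genes were higher at 48 h than at 0 h, and in litter 2 only Lyz2 was at least 2-fold higher.

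Csf1r stood at 18.4, 15.5, 17.7 and 29.9 CPM at 0, 2, 12 and 48 h in litter 1, at 3.16, 2.63, 4.43 and 3.03 CPM in litter 2, and at 4.81, 7.10, 25.2 and 37.0 CPM in litter 3. Litter 2 stayed at its starting level, and litter 3 was above litter 1 at 12 and 48 h. Lyz2 had a like course in litters 1 and 3 but was also higher at 12 and 48 h than at 0 h in litter 2, with 144, 117, 123.1 and 209.8 CPM in litter 1, 17.1, 13.3, 28.8 and 36.2 CPM in litter 2, and 47.8, 60.9, 151 and 268 CPM in litter 3.

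Tyrobp, low in all baseline cultures, gave 6.27, 4.84, 5.11 and 10.4 CPM in litter 1, 1.08, 1.02, 1.65 and 1.43 CPM in litter 2, and 1.85, 3.02, 9.05 and 13.4 CPM in litter 3. Within this experiment it went along with the other macrophage genes.

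Adgre1 gave 15.8, 9.36, 10.4 and 25.7 CPM in litter 1, 3.33, 1.07, 3.93 and 3.74 CPM in litter 2, and 3.87, 6.55, 15.3 and 23.8 CPM in litter 3. It was the 1 gene for which litter 1 was still the highest at 48 h. Cd68 gave 5.22, 4.77, 5.29 and 13.1 CPM in litter 1, 2.50, 1.27, 2.28 and 1.78 CPM in litter 2, and 2.17, 3.07, 8.87 and 15.4 CPM in litter 3.

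Mrc1 differed from the others in starting at like levels in all litters. It gave 13.7, 13.04, 12.8 and 33.1 CPM in litter 1, 10.3, 8.62, 12.0 and 11.8 CPM in litter 2, and 12.2, 10.1, 14.8 and 40.0 CPM in litter 3. Litter 2 was the lowest at every time, and the litters lay much further apart at 48 h than before.

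The C1q genes were highest at 48 h in litters 1 and 3. C1qa gave 2.68, 4.13, 2.99 and 11.3 CPM in litter 1, 1.499, 0.731, 1.84 and 0.891 CPM in litter 2, and 1.30, 2.11, 6.44 and 22.01 CPM in litter 3. C1qb gave 2.73, 3.29, 2.12 and 7.57 CPM in litter 1, 0.291, 0.341, 1.65 and 0.297 CPM in litter 2, and 1.10, 1.01, 2.25 and 13.6 CPM in litter 3. C1qc gave 3.02, 3.15, 1.98 and 12.2 CPM in litter 1, 0.791, 0.292, 0.696 and 0.594 CPM in litter 2, and 1.54, 1.47, 3.84 and 21.7 CPM in litter 3. In litter 2 the 48 h values of the C1q genes rest on 15, 5 and 10 reads.

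**Figure D3:**
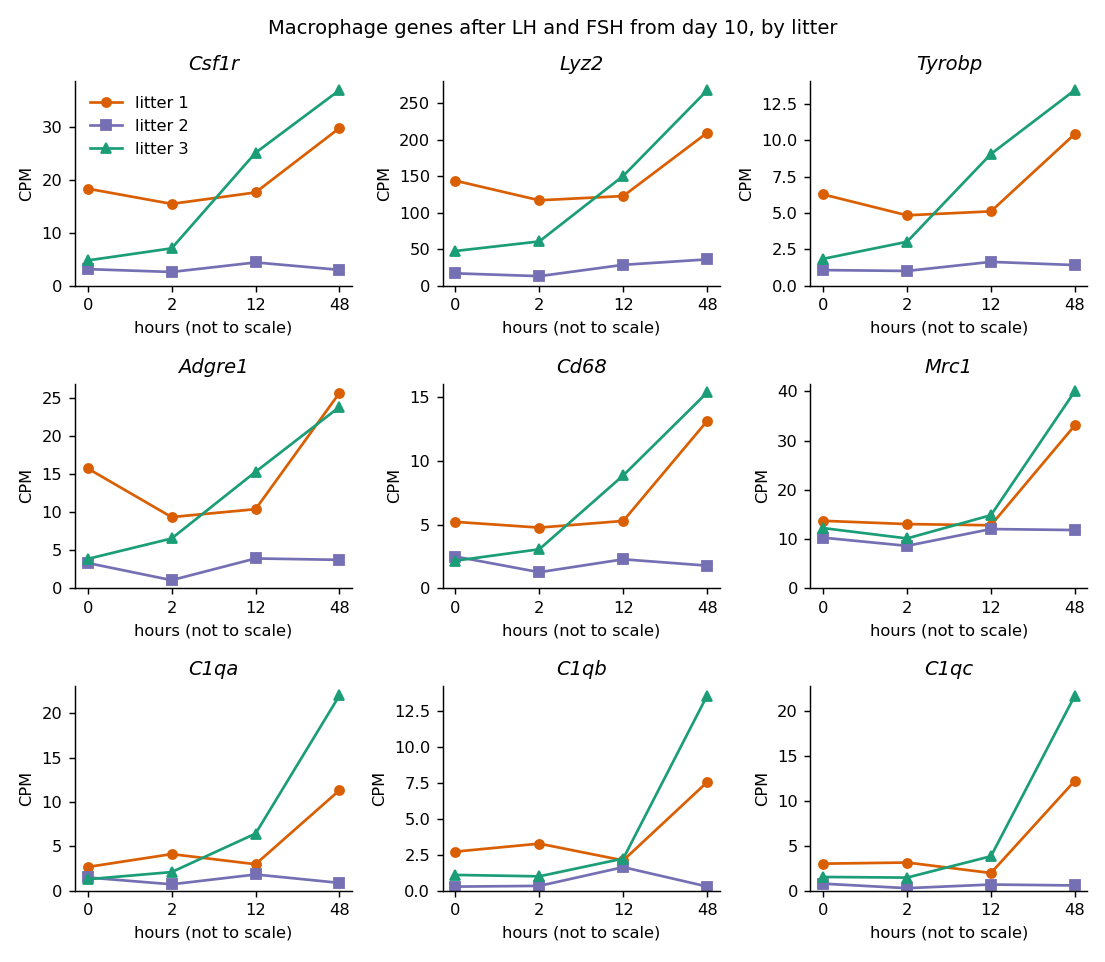
Each panel plots 1 gene in CPM (vertical axis, from 0) at 0, 2, 12 and 48 h after LH and FSH (horizontal axis, not to scale); each point is 1 library and lines join the libraries of a litter. Litter 2 is the lowest line in most panels, litter 1 reaches its own highest value at 48 h, where litter 3 is above it for every gene but Adgre1, and litter 3 is well above its start at 12 h for Csf1r, Lyz2, Tyrobp, Adgre1 and Cd68 and at 48 h for Mrc1, C1qb and C1qc.

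The changes within a litter separated the genes by when they were higher. In litter 3, Csf1r was higher at 12 h than at 0 h by 2.17 on the log2 scale and higher at 48 h than at 12 h by 0.54. The same steps were 1.64 and 0.83 for Lyz2, 1.82 and 0.52 for Tyrobp, 1.75 and 0.61 for Adgre1, and 1.64 and 0.73 for Cd68, so that the first step was the larger for these 5 genes. For Mrc1 they were 0.26 and 1.37, for C1qb 0.63 and 2.17, and for C1qc 0.93 and 2.23, with the second step the larger, while C1qa had 1.69 and 1.63. In litter 1 the first step was between -0.56 (Adgre1) and 0.12 (C1qa), and the second between 0.73 (Csf1r) and 2.15 (C1qc). In litter 2 the second step lay between -1.03 (C1qb) and 0.32 (Lyz2). Each step compares 1 library with 1 library and has no replicate check.

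**Figure D4:**
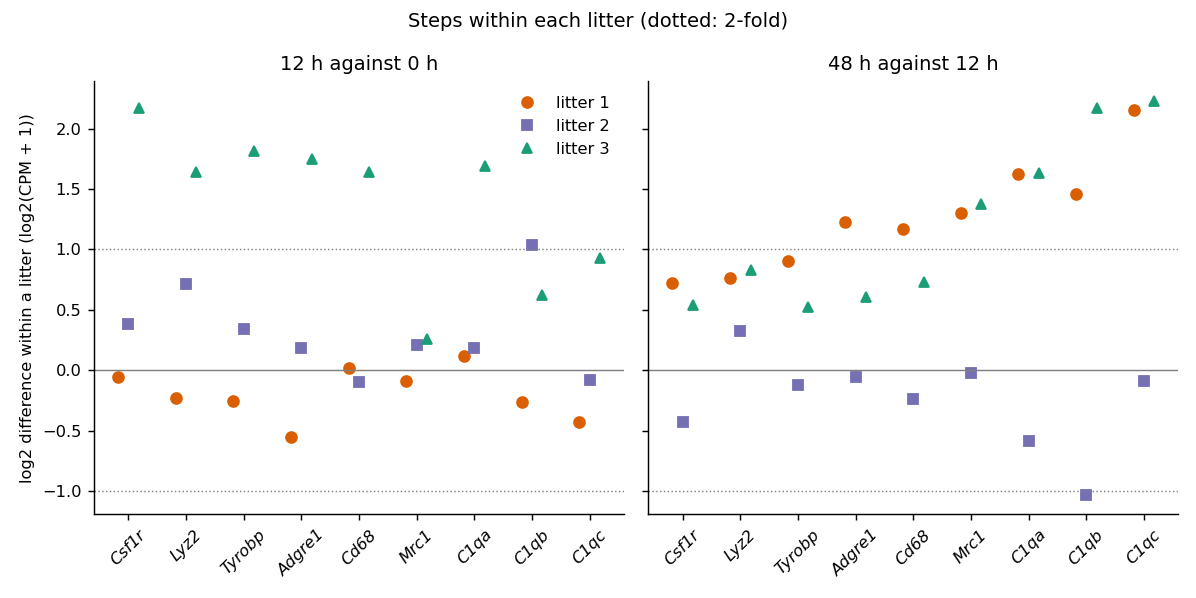
Log2 differences on log2(CPM + 1) within each litter, 12 h against 0 h (left) and 48 h against 12 h (right), for the 9 tested genes; each point compares 2 libraries and dotted lines mark 2-fold. On the right, litters 1 and 3 lie above 0 for all 9 genes and reach 2.15 and 2.23 for C1qc, while litter 2 lies between -1.03 and 0.32.

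Over 48 h, 5 of the 9 genes were at least 2-fold higher than at 0 h in litter 1 (C1qa, C1qc, Mrc1, C1qb and Cd68, at 1.19 to 1.74), where 1.55% of all 12450 genes were. In litter 2 this held for 1 of 9, Lyz2 at 1.04, where 0.498% of all genes were. In litter 3 it held for 9 of 9, where 1.73% of all genes were, with differences from 1.63 for Mrc1 to 3.32 for C1qa. The median difference of the 9 genes was 1.19, 0.01 and 2.46 in litters 1, 2 and 3, beside -0.01, -0.04 and -0.05 over all genes. At 12 h, 0, 1 and 6 of the 9 genes were at least 2-fold higher than at 0 h in litters 1, 2 and 3, where 0.0402%, 0.169% and 0.988% of all genes were.

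Averaged over litters, no macrophage gene passed in any of the 4 induction comparisons, in a fit whose error includes the spread between litters. At 48 h against 0 h the differences were largest for C1qc (1.57 ± 0.81, limma adjusted p = 0.447), C1qa (1.55 ± 0.74, 0.404) and Lyz2 (1.35 ± 0.99, 0.595), and 0 of 9 genes were called, where 0.394% of all genes were. Mrc1, at 28.3 ± 14.7 CPM at 48 h, against 12.1 ± 1.72 CPM at 0 h, was the 1 gene of the 9 with an unadjusted p under 0.05 (1.01 ± 0.34, adjusted p = 0.244). Over all genes, 1614 of 12450 had an unadjusted p under 0.05. With litter as a block, Lyz2 (1.35 ± 0.30, adjusted p = 0.0347) and Mrc1 (1.01 ± 0.25, adjusted p = 0.0470) passed, where 4.35% of all genes passed, both of them with a higher value at 48 h in 3 of 3 litters. The other 7 genes had blocked adjusted p between 0.0930 (C1qc) and 0.147 (Csf1r). Mrc1 also passed without the 48 h library of litter 2 (1.53, 0.0110) and with DESeq2 (1.28, 0.0182). The blocked calls of both genes rested on the litters included. Without litter 1 Lyz2 passed (1.75, 0.0417) and Mrc1 did not (0.91, 0.258), and without litter 3 neither did (0.79, 0.124 for Lyz2 and 0.70, 0.236 for Mrc1). Without litter 2, Lyz2 did not pass (adjusted p = 0.127), while Mrc1 (1.42, 0.0175), C1qa (2.53, 0.0474) and C1qc (2.44, 0.0400) did, and Mrc1 also passed there without the block (0.0277).

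At 2 h against 0 h, 0 of 9 genes were called by limma, where 0% of all genes were called. An unadjusted p under 0.05 was found in none of the 9 and in 1327 of all 12450 genes. With litter as a block 0 of 9 were called, where 0.618% of all genes were. The differences lay between -0.37 ± 0.79 for Adgre1 and 0.13 ± 0.74 for C1qa. At 12 h against 0 h, 0 of 9 were called by limma, where 0% of all genes were, with or without the block. Again none of the 9 had an unadjusted p under 0.05, where 311 of all 12450 genes did. Csf1r had the largest difference (0.83 ± 0.90, adjusted p = 0.993). At 48 h against 12 h, 0 of 9 were called by limma, where 0% of all genes were and 0.715% with the block. Mrc1 alone of the 9 had an unadjusted p under 0.05 (0.88 ± 0.34, adjusted p = 0.598), where 846 of all 12450 genes did. edgeR and DESeq2 on the recovered reads called 0 of 9 in these 3 comparisons as well.

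The difference between litters was then tested, a test chosen after the values were seen. In the limma fit with time and litter as terms, the litter term passed for 7 of the 9 genes, where 23.3% of all genes passed. Lyz2 had the clearest difference, lower in litter 2 than in litter 1 by 2.65 ± 0.26 on the log2 scale and higher in litter 3 than in litter 2 by 2.18 ± 0.26 (adjusted p = 0.000275). It was followed by Csf1r (adjusted p = 0.00380), Adgre1 (0.00408), Tyrobp (0.00607), C1qc (0.0227), Cd68 (0.0241) and C1qb (0.0482), while C1qa (0.0637) and Mrc1 (0.0830) did not pass. Csf1r, Lyz2, Tyrobp and Adgre1 passed under every alternative tried for this test, and the count fell to 4 of 9 with no filter on low values and to 4 of 9 without the 2 h libraries. The test sets the litter differences against the spread left once the mean differences of time and litter are removed. That spread includes courses over time that differed by litter. The 4 libraries of a litter share their animals and cell preparation, so the test speaks of these litters only. With 1 preparation each, the litter and its preparation cannot be told apart.

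Litter 2 was the lowest of the 3 at all 4 times for 7 of the 9 macrophage genes, or 77.8%, where 5.98% of all 12450 genes were. This order was picked after the values of these same genes were seen, so the counts describe it and do not test it. The 9 genes moved much alike and the libraries of a litter share 1 preparation, so they are not separate observations. The exceptions were Cd68 and C1qa, for which litter 3 was lowest at 0 h. Of 21 tested myeloid surface and signalling genes 16 had this order, for example Laptm5, a lysosomal protein of blood cells, with 15.3, 11.7, 11.6 and 21.4 CPM in litter 1, 2.75, 1.51, 3.93 and 2.44 CPM in litter 2, and 3.43, 7.19, 18.1 and 24.4 CPM in litter 3. Ptprc likewise gave 5.17, 3.46, 5.20 and 6.54 CPM in litter 1, 0.791, 0.682, 1.20 and 0.891 CPM in litter 2, and 1.42, 2.43, 5.44 and 8.05 CPM in litter 3. Spi1 gave 5.32, 4.24, 2.95 and 6.48 CPM in litter 1, 0.874, 1.07, 1.01 and 1.13 CPM in litter 2, and 1.78, 2.02, 5.38 and 7.87 CPM in litter 3. The order was rarer among lysosomal genes (6 of 18), myeloid regulators (4 of 12), scavenging genes (3 of 10) and complement partners (3 of 11), and it was seen in 0 of 9 inflammatory mediators and 0 of 4 endothelial genes. Litter 2 was the lowest litter for 22.4 to 25.2% of all genes at the 4 times.

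**Figure D5:**
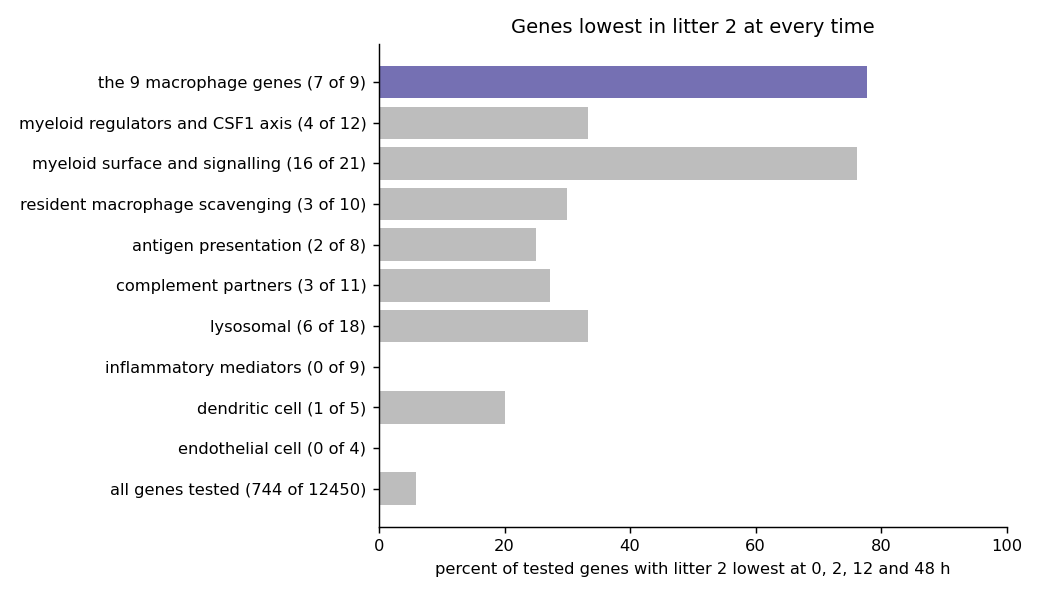
Percent of the tested genes of each list (horizontal axis) for which litter 2 was the lowest of the 3 litters at 0, 2, 12 and 48 h, for lists with at least 4 tested genes. The bars reach 77.8% for the macrophage genes and 76.2% for the myeloid surface genes, beside 5.98% over all genes. The order was picked after the values of the macrophage genes were seen, so the bars are no test.

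Litter 2 was the lowest at all 4 times for 1 of 5 tested dendritic cell genes and 0 of 2 tested B cell genes. The neutrophil and the T and NK cell genes were too low to judge. No neutrophil gene and only 1 T and NK cell gene passed the low-value filter. The neutrophil genes summed to 0.303 to 0.707 CPM over the 12 induction libraries and the T and NK cell genes to 1.28 to 3.09 CPM. Cdh5 was the highest in litter 2 at all 4 times, with 24.3, 17.1, 24.1 and 25.1 CPM in litter 1, 49.6, 46.2, 41.4 and 30.4 CPM in litter 2, and 11.5, 16.0, 27.0 and 13.8 CPM in litter 3. Of the 4 tested endothelial genes, Cdh5 alone passed the limma litter test (adjusted p = 0.00473). The litter 2 minus litter 1 differences of the others were mixed: 0.15 ± 0.12 for Kdr, -0.24 ± 0.15 for Vwf and -0.12 ± 0.13 for Flt1. The growth factor Csf1 gave 81.4, 73.1, 82.5 and 103 CPM in litter 1, 86.3, 71.1, 86.6 and 97.9 CPM in litter 2, and 70.1, 60.98, 68.2 and 87.3 CPM in litter 3. For Il34, the other ligand gene, litter 2 minus litter 1 was 0.30 ± 0.14 and litter 3 minus litter 2 was 0.26 ± 0.14 (limma litter term, adjusted p = 0.0402). The part of either ligand in the litter differences was not tested. Csf1 was higher at 48 h than at 0 h in 3 of 3 litters and passed with litter as a block (0.28 ± 0.05, adjusted p = 0.0198). Of the other lists, the same blocked comparison called Cebpb up and Id3 down among 12 myeloid regulators, Itgb2 up among 21 surface genes (1.03 ± 0.24, adjusted p = 0.0405), the complement gene C7 up among 11 partners (1.58 ± 0.33, 0.0290), and Lamp2, Gpnmb and Grn, among others, up in the list of 18 lysosomal genes; without the block no gene of any list passed.

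The genes most like each macrophage gene were found by the root mean square difference in log2(CPM + 1) over all 24 libraries, each gene centred within its experiment, among 12103 genes tested in both experiments. Among the 5 nearest to Csf1r were Pld4 (0.308), Cybb (0.312), Ctss (0.316) and Laptm5 (0.336), where Csf1r itself varied by 0.914. Csf1r (0.477) and Cybb (0.517) were among the 3 nearest to Lyz2, nearest to Cd68 were Pf4 (0.305), Tlr2 (0.308) and Cd53 (0.310), and nearest to C1qa were Ctss (0.353), Cd53 (0.365) and Nckap1l (0.398). Adgre1 was nearest to Gpnmb (0.367), Itgal (0.465) and Fcrl2 (0.491), and Mrc1 to Fgr (0.261), Otulinl (0.291) and Myo1f (0.295). Tyrobp stood apart, with Cxcr4 (0.522), Col6a6 (0.523), Mt2A (0.585), Csf3r (0.620) and Cpeb1 (0.629) as its nearest, none of which was among the 5 nearest of any other macrophage gene. These values describe likeness over libraries that share litters and preparations.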

How the data were processed

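Per the labels' protocols, whole testis cells were seeded in Matrigel, and poly-T purified RNA was made into non-directional libraries. STAR and the rat assembly mRatBN7.2 are named in the submitters' processing notes; how reads were assigned to genes is not given in the sources used here, and without strand, overlapping genes cannot be told apart. The authors deposited CPM values for 21425 genes, normalized to library totals. All of them (100%) were whole multiples of 1 read to within 0.01 read, so reads were recovered; reads outside the listed genes made up 2.93 to 3.98% of the baseline totals and 4.25 to 4.71% of the induction totals.

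The 12 libraries of an experiment shared a limma model (version 3.58.1, under R 4.3.3) of log2(CPM + 1) on group alone, moderated by empirical Bayes with a mean-variance trend. Genes needed 1 CPM in at least 3 libraries, which kept 13055 and 12450 genes. Calls were made at a two-sided p under 0.05 after Benjamini-Hochberg adjustment over all genes tested. The recovered reads were also tested with edgeR (4.0.16) and with DESeq2 (1.42.0): edgeR called 7287, 7724, 7760 and 463 genes in the comparisons of days 3, 5 and 7 with tissue and of day 7 with day 3, and 6, 0, 38 and 0 in those of 2, 12 and 48 h with 0 h and of 48 h with 12 h. Other alternatives were a pseudocount of 0.25, no filter, TMM scaling, a replicate block, only the 2 groups compared, and leaving out each library; leaving out each litter, and the litter test with its alternatives, were added after the data were seen. The fits were tested on simulated data.

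The labels number the litters of the induction libraries, so the numbers pair them: 16 of 18 same-litter pairs correlated above 0.1 after group means were removed (median 0.482, across genes). Blocked values are given where they change a call.

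The 10 genes and the lists of other genes were chosen with earlier results of these data known. All 10 are named in every experiment; from another list, up to 3 called genes with the largest differences and at least 5 CPM in the higher group could be named, and some others were named after their values were seen. Promoters came from RefSeq on GRCr8, with 8 of 10 genes matched. Results for some other genes are not reported here.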

Additional observations from a re-analysis of the deposited data

How the results depend on the processing

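For the macrophage genes, 64 differences had 1432 alternatives. The side of the threshold held in 1410 of them, 6 lost a call, 16 gained one and none reversed a called direction. Among the 1410, 60 changed sign where neither fit made a call. Of the 22 changed calls, 17 came from leaving out a library or a litter; each is given beside its result above. The cause was not tested.

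The number of macrophage genes called moved to 1 at day 7 against day 3 with DESeq2 (Tyrobp), to 1 at 48 h against 0 h with DESeq2 (Mrc1) and to 2 with the replicate block (Lyz2 and Mrc1). Leaving out a library, or a litter with or without the block, gave 0 to 1 at day 7 against day 3 and 0 to 3 at 48 h against 0 h. Litter differences were called for 4 macrophage genes with no filter on low values and for 4 to 6 when the libraries of 1 time were left out.

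Over all genes, day 7 against day 3 gave 495 calls, 802 with DESeq2, 286 with only the 2 groups compared and 182 to 828 without 1 library; 35.8% of the calls were higher at day 7, and 49.8% with TMM scaling. At 2 h against 0 h, 0 calls became 6 with TMM scaling, 6 with edgeR, 377 with DESeq2 and 77 with the replicate block. At 12 h against 0 h, 0 became 9 with DESeq2 and 0 to 2 without a library or litter. At 48 h against 0 h, 49 became 14 with no filter, 419 with DESeq2, 541 with the replicate block, 2 with only the 2 groups compared, and 0 to 195 without a library or litter. At 48 h against 12 h, 0 became 85 with DESeq2, 89 with the replicate block and 0 to 23 without a library or litter. Litter differences over all genes were 2897, 1813 with TMM scaling and 1102 to 1721 without the libraries of 1 time.

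The baseline replicate numbers did not pair the libraries (median correlation -0.000715, 5 of 18 pairs above 0.1); a replicate block there called 7229, 7732, 7761 and 485 genes and changed no call of a macrophage gene. Values under 1 CPM rest on few reads: C1qc had 0 to 29 reads per baseline library and was not tested there.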

Other observations

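The MHC class II genes, which macrophages and dendritic cells use to present antigen, had a litter course of their own in the induction libraries. Cd74, the class II invariant chain, stood at 1.39, 2.12, 2.81 and 8.48 CPM at 0, 2, 12 and 48 h in litter 1, at 0.708, 1.07, 6.65 and 0.713 CPM in litter 2, and at 1.34, 0.962, 9.99 and 31.6 CPM in litter 3. At 12 h litter 2 was thus above litter 1, although its macrophage genes were the lowest of the 3 litters, and by 48 h it was back at its 0 h level. RT1-Da, a class II alpha chain gene, gave 0.239, 0.530, 0.506 and 1.64 CPM in litter 1, 0.0416, 0.146, 1.90 and 0.119 CPM in litter 2, and 0.395, 0.0916, 1.48 and 7.81 CPM in litter 3.

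Of the 8 tested antigen presentation genes, 4 were at least 2-fold higher at 12 h than at 0 h in litter 2 and 4 at least 2-fold lower at 48 h than at 12 h, with medians of 0.99 and -0.80 on the log2 scale beside -0.04 and 0.01 over all genes. In litter 3, 7 of the 8 were at least 2-fold higher at 48 h than at 0 h (median 2.21), and in litter 1 this held for 2 of the 8 (median 0.85). Each of these values compares 1 library with 1 library, no gene of the list passed limma in the comparisons over litters, with or without the block, and the genes were singled out after their values were seen.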
